A study of Mus musculus with 11 samples.

Results

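The 10 genes described here make up the core of TGF-β signalling: the ligand genes Tgfb1, Tgfb2 and Tgfb3, the receptor genes Tgfbr1 and Tgfbr2, the signal-carrying Smads Smad2, Smad3 and Smad4, and the inhibitors Smad7 and Ski. They were taken by symbol from the 50686 genes with deposited counts, and all 10 passed the filter on low counts in every comparison. They were measured in 11 RNA-seq libraries of gliomas grown from GL261 cells, a mouse glioma line, implanted into the brains of C57BL/6 mice at 6 weeks of age and collected 3 weeks after tumour initiation. Of these, 6 were of bulk tumour from fixed, paraffin-embedded tissue (WT replicates 35, 38 and 110 and KO replicates 26, 36 and 37). The other 5 were of tumour-associated microglia (TAM-MG), sorted as CD11b+ CD45low cells (WT replicates 74 and 78 and KO replicates 54, 63 and 65). WT mice carry floxed Rheb1 without Cre. KO mice carry in addition a tamoxifen-inducible Cre placed into the Cx3cr1 gene, so that Rheb1, which switches on mTOR complex 1, is deleted in host cells that express Cx3cr1. Mice of both genotypes received tamoxifen 3 weeks before implantation. The deletion reaches macrophages with Cx3cr1 as well as microglia, spares the implanted GL261 cells, and comes with the loss of a working Cx3cr1 copy, which in this design cannot be told apart from the loss of Rheb1.

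TGF-β ligands are secreted in a latent form, bound to their own propeptide and often to a storage protein, and integrins or proteases release them. The active ligand brings together TGFBR2 and TGFBR1, and TGFBR1 phosphorylates SMAD2 and SMAD3, which join SMAD4 and enter the nucleus. SMAD7 is induced by the signal and shuts down the receptor, whereas SKI holds Smad complexes in a repressed state. In the brain, TGF-β1 is known as a factor that microglia need to keep their characteristic gene expression, and TGF-β in glioma is known to dampen immune responses.

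Counts per library summed to between 14940787 and 21991348 in bulk tumours and between 20765767 and 29947977 in TAM-MG. Rheb, the gene that the labels call Rheb1, stood at 235 to 348 CPM (counts scaled to library size) in WT and at 125 to 225 CPM in KO bulk tumours (log2 fold change -0.88 ± 0.32 SE, adjusted p = 0.426). In TAM-MG it stood at 86.5 to 164 CPM in WT and at 67.8 to 71.2 CPM in KO (log2 fold change -0.85 ± 0.34 SE, adjusted p = 0.552). Only exon 3 is deleted, and gene counts also hold reads of the exons that remain. The TAM-MG libraries had the markers of their sort: the summed level of 13 microglia and macrophage markers ran from 34334 to 54821 CPM, against 462 to 1971 CPM in bulk tumours on one scale over the 11 libraries, while 8 neuronal markers summed to at most 36.2 CPM. Markers of other cells were also read in TAM-MG, with 184 to 367 CPM over 6 astrocyte, 227 to 333 CPM over 6 oligodendrocyte and 208 to 411 CPM over 5 granulocyte markers. Over 8 endothelial markers the sum was 61.2 to 114 CPM in TAM-MG and 44.0 to 125 CPM in bulk tumours. Of these 8, 6 had a negative log2 difference of TAM-MG against bulk tumours and 2 a positive one. The median was -2.83, beside -0.89 over all genes. The positive ones were Cldn5 (mean 39.9 CPM in TAM-MG, 11.2 CPM in bulk tumours) and Pecam1 (14.7 and 7.15 CPM). Among the others, Cdh5, Vwf and Tek lay at -4.80, -6.14 and -6.34. The granulocyte markers summed to 0.642 to 31.4 CPM in bulk tumours. Most of their sum in TAM-MG was Csf3r (176 to 378 CPM). S100a8 stood at 14.5 to 39.2 CPM there and S100a9 at 1.92 to 11.6 CPM. The part of granulocytes or endothelial cells in the differences between sources was not tested. In the bulk tumours the same 13 markers were lower in KO (549 to 1181 CPM) than in WT (1693 to 2388 CPM), and 13 of 13 had a negative fold change (median log2 -1.18, beside 0.003 over all genes). In bulk RNA, fewer cells of a type and less RNA per cell cannot be told apart.

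On the GRCm38 assembly, Tgfb1 lies on chromosome 7 (25687002 to 25705077, plus strand), Tgfb2 on chromosome 1 (186622792 to 186705989, minus strand) and Tgfb3 on chromosome 12 (86056745 to 86079041, minus strand). Tgfbr1 (chromosome 4, 47353222 to 47414931, plus strand) shares its chromosome with Ski (155154075 to 155222592, minus strand), and Tgfbr2 (116084293 to 116175360) shares chromosome 9 and the minus strand with Smad3 (63646767 to 63757994). Smad2 (76241580 to 76310963), Smad4 (73639009 to 73703780) and Smad7 (75367529 to 75395935) all lie on chromosome 18. All are protein-coding, and values are sums over the exons of each gene. Tgfb2 overlaps an antisense gene over 2.1% of its exon bases, and Tgfb3 overlaps transcripts of the other strand over 4.8% and 7.6%. Without stranded counting, reads from these stretches cannot be assigned.

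Which members of the pathway were most abundant was read from TPM, a transcript abundance that accounts for gene length. In bulk tumours Smad4, the Smad shared by all branches of the pathway, had the highest mean (24.1 ± 4.77 TPM, SD, n = 6), followed by Ski (19.1 ± 6.69 TPM) and Smad3 (11.03 ± 4.87 TPM). Tgfbr2, the receptor that binds ligand first, was at 10.6 ± 2.62 TPM and Tgfbr1, its signalling partner, at 5.95 ± 2.03 TPM. Tgfb2 was the lowest, at 2.30 ± 1.41 TPM. Tgfb3 (6.85 ± 3.32), Smad2 (6.50 ± 4.13), Tgfb1 (5.68 ± 2.63) and Smad7 (5.27 ± 2.46) had similar mean TPM between these. In TAM-MG the order was another: Tgfbr1 led at 87.7 ± 40.4 TPM (SD, n = 5), above the next gene in 5 of 5 libraries. Ski followed at 43.3 ± 23.6 TPM, Tgfbr2 at 35.2 ± 13.8 TPM and Smad2 at 25.5 ± 8.07 TPM. Smad7 (18.2 ± 12.5 TPM), Smad4 (14.5 ± 10.1 TPM) and Smad3 (8.69 ± 7.73 TPM) stood in the middle. The ligands came last, with Tgfb1 at 3.65 ± 2.43 TPM, Tgfb3 at 3.29 ± 5.16 TPM and Tgfb2 at 0.142 ± 0.142 TPM. The ranges of neighbours in these orders overlapped. Within libraries, Ski was above Smad3 in 6 of 6 tumours, and no other neighbours but Tgfbr1 and Ski in TAM-MG kept their order in every library. Counts divided by exon length and scaled like TPM changed these orders in part. Smad4 in bulk tumours and Tgfbr1 in TAM-MG still had the highest means, and the ligands still came last in TAM-MG. In bulk tumours the mean of Tgfbr1 (34.4) then exceeded that of Smad3 (27.2), and Tgfb1 (1.73) was the lowest. In TAM-MG Tgfbr2 (74.1) exceeded Ski (66.7), and Smad2 (16.75) fell below Smad7 (20.9), Smad4 and Smad3 (17.7).

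**Figure D1:**
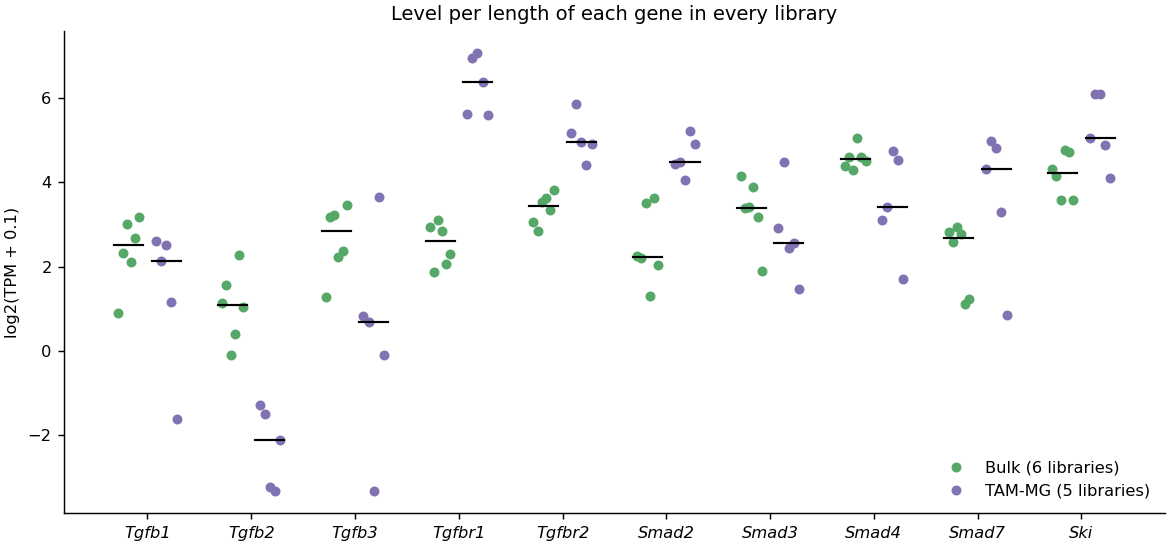
Level per length, plotted as log2(TPM + 0.1), of the 10 genes in each of 6 bulk and 5 TAM-MG libraries, with bars at the medians and both genotypes together. Tgfbr1 runs from 3.58 to 8.51 TPM in bulk tumours and from 48.1 to 134 TPM in TAM-MG, whereas Tgfb2 is at or below 0.313 TPM in TAM-MG.

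On the deposited TPM, the receptors stood in opposite order in the sources. Tgfbr1 was below Tgfbr2 in each bulk tumour, with a ratio of their TPM of 0.508 to 0.915 in WT and 0.343 to 0.577 in KO. In TAM-MG, Tgfbr1 exceeded Tgfbr2 in each library, with ratios of 1.59 and 3.97 in WT and of 1.37, 2.13 and 4.33 in KO. The genotypes overlapped in both sources. Counts divided by exon length, a measure added after the data were seen, gave ratios of 0.462 to 1.55 in bulk tumours and of 1.53 to 4.005 in TAM-MG. By counts the sources thus overlapped, and Tgfbr1 exceeded Tgfbr2 in WT 35 and WT 110 of the bulk tumours.

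The order of the ligands depended in part on the measure. By TPM, Tgfb3 held 44.9% ± 8.79 (SD, n = 6) of the summed level of the ligands in bulk tumours, Tgfb1 37.3% ± 6.78 and Tgfb2 17.8% ± 11.7. Counts divided by exon length gave 54.8% ± 19.0 for Tgfb3, 5.56% ± 4.43 for Tgfb1 and 39.7% ± 20.3 for Tgfb2. Tgfb3 thus had the largest mean share in bulk tumours by both, while Tgfb2 was the lowest ligand by TPM and Tgfb1 the lowest by counts. The cause of this disagreement was not tested. The read support behind Tgfb1 was small, with 6 to 213 counts in a bulk library, against 110 to 750 for Tgfb2 and 98 to 719 for Tgfb3. In TAM-MG the ligand shares spread over almost the whole range between libraries: by TPM, Tgfb1 held from 14.7% to 99.9% and Tgfb3 from 0 to 85.3%, while Tgfb2 never passed 11.1%. The mean share there was 55.9% for Tgfb1 and 40.2% for Tgfb3 by TPM, but 36.2% and 58.2% from counts.

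Sorted microglia were set against whole tumours to show where in the tumour the pathway genes were read. On counts, 4 of the 10 genes were called higher in TAM-MG and 2 lower, by edgeR's quasi-likelihood test. A call needed a difference of 1.5-fold or more with an adjusted p (Benjamini-Hochberg) below 0.05. Of all 21342 genes tested, 20.5% were called higher, 32.4% lower and 52.9% in either direction, so a call as such was common. The median gene lay at a log2 difference of -0.89, and differences relative to that median are given beside each value below. Sort and preparation coincide with the source, so microglial identity, dissociation and tissue fixation cannot be told apart.

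Tgfbr1 had the largest positive difference of the 10. On the 11-library scale its CPM ran from 37.5 to 111 in bulk tumours (median 71.3, n = 6) and was 498 and 425 in TAM-MG WT and 324, 942 and 967 in TAM-MG KO. All 5 sorted libraries lay above all 6 tumours, as they did for 14.6% of genes, with a log2 difference of 3.08 ± 0.38 (SE, adjusted p = 9.14e-05, 3.97 relative to the median gene). Tgfbr2 ran from 64.7 to 142 CPM in bulk tumours and from 156 to 464 CPM in TAM-MG, again without overlap (log2 difference 1.59 ± 0.27, adjusted p = 0.00071, 2.49 relative to the median gene). Among the Smads, Smad2 was higher in TAM-MG (54.5 to 94.9 CPM against 15.6 to 45.1 CPM, log2 difference 1.21 ± 0.37, adjusted p = 0.0184, 2.10 relative to the median gene). Ski ranged from 87.2 to 312 CPM in TAM-MG and from 49.1 to 102 CPM in bulk tumours, overlapping at the edges (log2 difference 1.13 ± 0.29, adjusted p = 0.0075, 2.03 relative to the median gene). The calls of Smad2 and Ski were lost without TAM-MG WT 74 (adjusted p = 0.0746 and 0.0569) and when only library size was used for scaling (0.168 and 0.11). Smad2 also lost its call without Bulk WT 35 (adjusted p = 0.0501), Bulk WT 38 (0.0639), Bulk KO 37 (0.0533), TAM-MG KO 63 (0.0668) or TAM-MG WT 78 (0.0807).

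Tgfb2 had the largest negative difference. It ran from 6.53 to 40.1 CPM in bulk tumours, and in TAM-MG it had 0 counts in WT 74, 14 in WT 78, and 27, 21 and 1 in KO 54, 63 and 65. No sorted library overlapped with the tumours, as for 20.2% of genes that were lower, and a total of 63 counts over the 5 sorted libraries stood against 2434 over the 6 tumours. The log2 difference was -4.95 ± 1.29 (adjusted p = 0.00859, -4.06 relative to the median gene). In WT 74 the count of 0 allows up to 0.0935 CPM, taken as 3 counts, on a scale set within TAM-MG. This limit covers counting error only. Smad4 was also lower in TAM-MG, with 7.31 to 48.1 CPM against 85.2 to 150 CPM and no overlap (log2 difference -1.80 ± 0.41, adjusted p = 0.0044, -0.91 relative to the median gene).

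Of the remaining 4 genes none was called. Smad7 ranged widely in TAM-MG, from 5.96 to 82.0 CPM, against 5.25 to 24.0 CPM in bulk tumours (log2 difference 1.202 ± 0.50, adjusted p = 0.0597, 2.10 relative to the median gene). It passed the threshold with the likelihood ratio test (adjusted p = 0.0383, where 60.5% of genes were called), without Bulk KO 26 (0.0275) and without TAM-MG WT 78 (0.0409). Tgfb1 ran from 0.385 to 15.5 CPM in TAM-MG and from 0.356 to 9.27 CPM in bulk tumours (log2 difference 0.72 ± 1.03, adjusted p = 0.579, 1.62 relative to the median gene). Tgfb3 had a log2 difference of -0.95 ± 1.06 (adjusted p = 0.472), which is -0.06 relative to the median gene. For Smad3 the difference was -0.20 ± 0.43 (adjusted p = 0.719, 0.69 relative to the median gene).

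**Figure D2:**
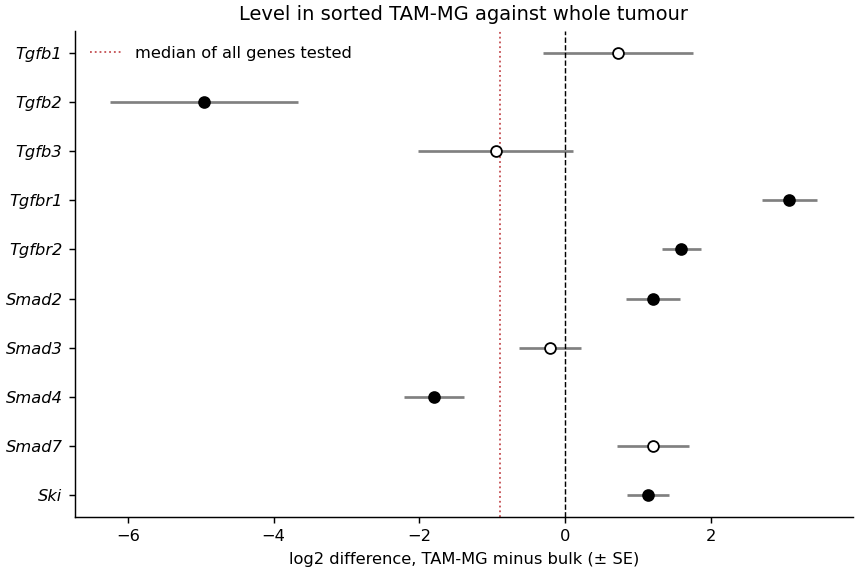
Log2 difference between TAM-MG and bulk tumours for each gene, with its standard error; filled points were called, open points were not, the dashed line marks 0 and the dotted line the median of all genes tested at -0.89. Tgfbr1 is farthest to the right at 3.08 and Tgfb2 farthest to the left at -4.95.

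The promoters of Tgfb2 and Tgfbr1, which had the largest negative and positive difference, are shown so that their sequence can be read beside their levels. Promoters of 6 of the 10 genes were read. Those of Smad2, Smad4 and Smad7 were left out, and the RefSeq table used here held none for Tgfb3. Each sequence below gives the 250 bases before the annotated start on GRCm38.p6, 5′ to 3′ on the strand of the gene. It was searched on both strands for the Smad-binding letters CAGACA and for GAGGAAGT, which resembles the site of PU.1, a factor of myeloid cells. Matches are in capitals. CAGACA is in 17.1% and GAGGAAGT in 2.44% of 32851 promoters of the same length, and the motifs do not overlap each other here.
Tgfb2, chr1:186705990-186706239, minus strand: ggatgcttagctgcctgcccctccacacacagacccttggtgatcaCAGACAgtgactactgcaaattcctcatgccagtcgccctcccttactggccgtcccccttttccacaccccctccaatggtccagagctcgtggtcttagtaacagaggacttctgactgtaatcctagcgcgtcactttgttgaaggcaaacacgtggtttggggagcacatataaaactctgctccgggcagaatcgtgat
Tgfbr1, chr4:47352972-47353221, plus strand: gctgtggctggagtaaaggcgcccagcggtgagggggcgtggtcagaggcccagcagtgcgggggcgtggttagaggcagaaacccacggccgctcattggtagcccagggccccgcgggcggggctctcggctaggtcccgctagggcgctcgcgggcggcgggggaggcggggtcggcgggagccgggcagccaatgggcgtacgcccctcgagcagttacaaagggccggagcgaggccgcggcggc
The Tgfb2 promoter held 1 CAGACA and no GAGGAAGT, and the Tgfbr1 promoter held neither. Their GC content was 53.6% and 74.8%, beside a median of 52.4% over all promoters. The promoters of Tgfb1, Tgfbr2, Smad3 and Ski held neither motif, and a second Tgfbr1 entry within the gene (chr4:47385966-47386215) held 1 CAGACA. A match is no evidence of binding, and a missing match says only that these letters are not in the window.

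Whether loss of Rheb1 in Cx3cr1-expressing cells went with other levels of the pathway in whole tumours was asked in the bulk libraries. None of the 10 genes was called, nor was any of the 17028 genes tested (0% in either direction). At an unadjusted p under 0.05 the 10 genes also gave a count of 0, whereas 9% of all genes passed it, 3.82% higher and 5.19% lower in KO. The likelihood ratio test called 2.25% of genes and DESeq2 2.76%, and both called 0 of the 10. Fold changes here and below are log2 of KO over WT, with CPM on a scale set within the experiment.

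Among the ligands, Tgfb1 was at 2.06, 2.97 and 2.18 CPM in WT 35, 38 and 110, and at 0.423, 1.598 and 11.2 CPM in KO 26, 36 and 37. By counts the KO tumours thus lay on either side of WT, and KO 37 alone made the mean higher (log2 fold change 0.87 ± 1.44, adjusted p = 0.907). Without KO 37 it was -1.24. By TPM, Tgfb1 was at 1.77, 4.89 and 7.95 in WT and at 4.19, 6.32 and 8.99 in KO, and KO 37 did not stand apart. Tgfb2 was at 24.0, 24.3 and 19.5 CPM in WT and at 7.75, 47.9 and 15.1 CPM in KO, so the spread in KO enclosed WT (log2 fold change 0.06 ± 0.70, adjusted p = 0.989). Tgfb3 was at 5.45, 27.5 and 21.6 CPM in WT and at 12.05, 16.2 and 37.6 CPM in KO, with wide overlap (0.27 ± 0.76, adjusted p = 0.952).

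Of the receptors, Tgfbr2 was the only gene of the 10 whose genotypes did not overlap in bulk tumours. It stood at 101, 77.6 and 109 CPM in WT and at 148, 121 and 171 CPM in KO. The log2 fold change was 0.62 ± 0.30 (unadjusted p = 0.0667, adjusted p = 0.591), which does not pass the test. Over all genes, 7.82% were likewise higher in KO without overlap and 9.23% lower. Tgfbr1 was at 109, 49.1 and 134 CPM in WT and at 105, 44.8 and 65.1 CPM in KO, overlapping (-0.44 ± 0.45, adjusted p = 0.835).

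The Smads of the bulk tumours overlapped between genotypes. Smad2 ran from 19.5 to 54.6 CPM in WT and from 18.8 to 50.05 CPM in KO (log2 fold change -0.06 ± 0.54, adjusted p = 0.985). Smad3 ran from 47.0 to 84.8 CPM and from 23.9 to 74.6 CPM (-0.32 ± 0.47, adjusted p = 0.89). Smad4 ran from 104 to 129 CPM and from 115 to 178 CPM (0.27 ± 0.30, adjusted p = 0.85). None of these differences passed the test, and 6 of the 10 genes had a positive fold change, beside 50.2% of all genes. Smad7, the feedback inhibitor, had the most negative fold change of the 10 (-0.97 ± 0.72, adjusted p = 0.737), with 22.1, 20.4 and 29.1 CPM in WT and 22.7, 6.26 and 7.54 CPM in KO. KO 36 and KO 37 lay below all WT tumours and KO 26 lay among them. Ski was at 76.1, 85.0 and 59.5 CPM in WT and at 119, 122 and 62.9 CPM in KO, with KO 37 inside the WT range (0.46 ± 0.36, adjusted p = 0.758).

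**Figure D3:**
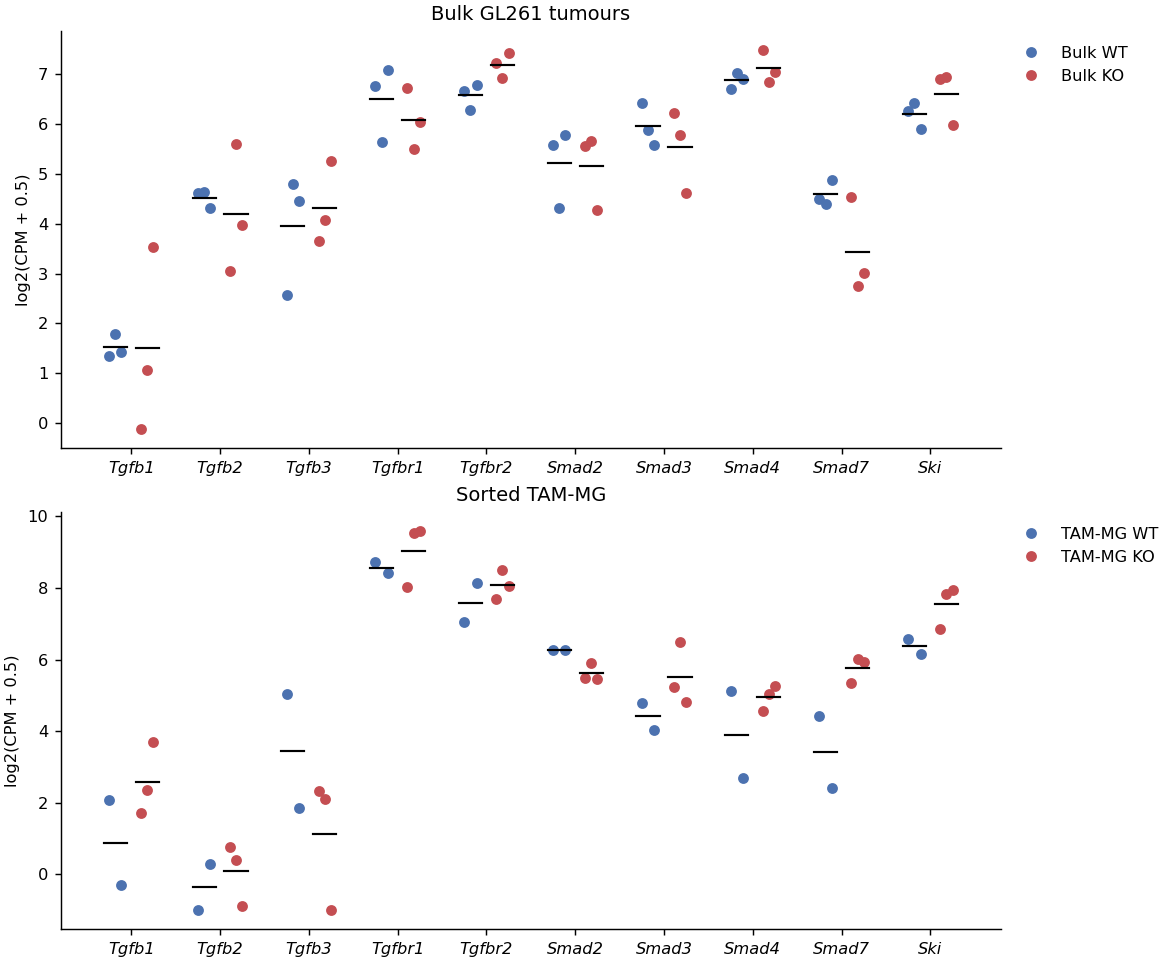
CPM of the 10 genes, plotted as log2(CPM + 0.5), in each library of bulk tumours (upper panel, 3 WT and 3 KO) and TAM-MG (lower panel, 2 WT and 3 KO), with bars at the means of the plotted values. In bulk tumours only Tgfbr2 separates the genotypes, and in TAM-MG Smad7, Ski and Smad3 lie higher and Smad2 lower in every KO library.

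The same question was put to the sorted microglia, where the deleted cells themselves were read. Again none of the 10 genes and none of 14872 genes was called (0%). At an unadjusted p under 0.05, 2 of the 10 passed, Smad7 and Ski, both higher in KO, beside 5.47% of all genes higher and 2.3% lower. The likelihood ratio test called 1.65% of genes and DESeq2 3.18%, and each called 0 of the 10, with smallest adjusted p of 0.17 and 0.102, both of Smad7. Groups that did not overlap were seen for 3 genes higher in KO and 1 lower, against 14.6% and 11.5% of all genes.

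Both inhibitors stood at higher levels in each KO library. Smad7 was at 20.8 and 4.805 CPM in WT 74 and 78 and at 40.04, 64.3 and 60.6 CPM in KO 54, 63 and 65. The log2 fold change was 2.10 ± 0.72 (unadjusted p = 0.0271, adjusted p = 0.552). Ski was at 95.6 and 70.3 CPM in WT and at 115, 226 and 248 CPM in KO (1.24 ± 0.42, unadjusted p = 0.0248, adjusted p = 0.536). For Ski the closest libraries of the genotypes lay 19.2 CPM apart, while KO libraries differed by up to 133 CPM. On the deposited TPM, tested with limma on log2(TPM + 1) without a filter, the log2 fold changes of Smad7 and Ski were 2.32 ± 0.69 and 1.22 ± 0.45 (unadjusted p = 0.0208 and 0.0436, adjusted p = 0.745 and 0.753). All 10 genes had the same sign on TPM as on counts, in TAM-MG and in bulk tumours, and 0 were called.

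The receptor-regulated Smads had fold changes of opposite sign, neither past the test. Smad2 was at 76.6 and 76.5 CPM in WT, 2 nearly equal values, and at 44.4, 59.1 and 43.3 CPM in KO (-0.65 ± 0.31, unadjusted p = 0.0824, adjusted p = 0.577). Smad3 was at 27.1 and 15.9 CPM in WT and at 36.9, 89.6 and 27.7 CPM in KO (1.26 ± 0.65, unadjusted p = 0.101, adjusted p = 0.623). KO 65 exceeded WT 74 in Smad3 by only 0.596 CPM. Smad4 was at 34.3 and 5.89 CPM in WT and at 23.1, 32.4 and 38.2 CPM in KO, so WT enclosed most of KO (0.64 ± 0.80, adjusted p = 0.935).

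Receptors and ligands of TAM-MG overlapped between genotypes. Tgfbr1 was at 420 and 342 CPM in WT and at 259, 739 and 769 CPM in KO (0.63 ± 0.51, adjusted p = 0.836), and Tgfbr2 at 131 and 281 CPM in WT and 206, 364 and 267 CPM in KO (0.44 ± 0.43, adjusted p = 0.892). KO 54 was below both WT libraries in Tgfbr1, and KO 63 and 65 were above them. Tgfb1 was at 3.71 and 0.31 CPM in WT and at 2.76, 4.65 and 12.3 CPM in KO (1.71 ± 1.58, adjusted p = 0.88), where 0.31 CPM stands for 6 counts. Tgfb3 was at 32.5 and 3.10 CPM in WT, at 4.504 and 3.76 CPM in KO 54 and 63, and at 0 counts in KO 65, which allows up to 0.123 CPM (-2.69 ± 2.03, adjusted p = 0.815). The negative sign of Tgfb3 comes from the high value of WT 74 and the 0 of KO 65. Tgfb2 was at or near the floor in every sorted library (at most 1.204 CPM), with an adjusted p of 0.982. Of the 10 genes, 8 had a positive fold change, beside 53.5% of all genes.

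**Figure D4:**
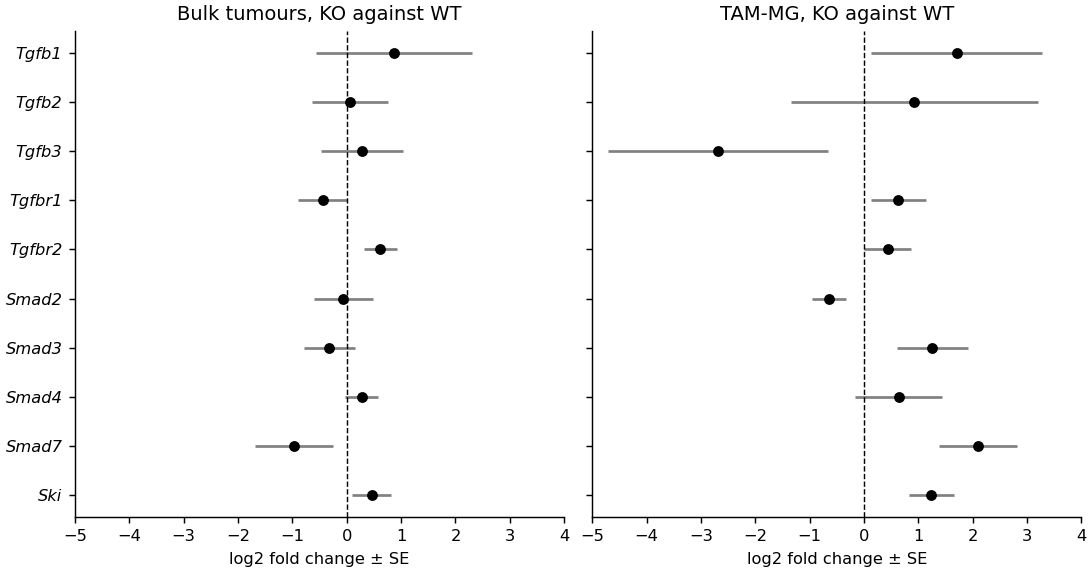
Log2 fold change of KO against WT, with its standard error from edgeR, for the 10 genes in bulk tumours (left) and TAM-MG (right); the dashed line marks 0. Smad7 stands at -0.97 in bulk tumours and at 2.10 in TAM-MG, and none of the 20 values was called with the quasi-likelihood test of edgeR.

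Smad7 had opposite signs in the sources, and the difference itself was tested over the 11 libraries. The genotype effect of Smad7 was 3.13 ± 1.04 higher on the log2 scale in TAM-MG than in bulk tumours (unadjusted p = 0.0116, adjusted p = 0.296). The likelihood ratio test gave an adjusted p of 0.0835 and DESeq2 of 0.0555, so none of the tools called it, while they called 3.91% and 5.67% of all genes. The median gene had a difference of 0.30. None of the other genes had an unadjusted p under 0.05, which 12.2% of all genes had: Smad3 came next (1.62 ± 0.87, adjusted p = 0.488), and Tgfb3 had the most negative value (-2.89 ± 2.08, adjusted p = 0.669). Of the 10 genes 0 were called, beside 0.225% of 21342 genes tested.

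The surroundings of the pathway were read from 6 lists of genes. Ahead of the receptors, the list of latent TGF-β storage and activation held Nrros, whose protein anchors latent TGF-β1 on microglia, and Lrrc32, which does so on other cells. In bulk tumours 7 of its 9 tested genes had a negative fold change and 1 passed an unadjusted p under 0.05. This was Nrros, with 8.13 to 24.2 CPM in WT and 0.634 to 5.13 CPM in KO (log2 fold change -2.40 ± 1.05, adjusted p = 0.529). On log2(TPM + 1) the fold change of Nrros was only -0.02. Lrrc32 overlapped (-0.66 ± 1.25, adjusted p = 0.921). In TAM-MG 5 of 8 were negative, Nrros had 203 to 361 CPM in WT and 395 to 591 CPM in KO (0.79 ± 0.36, adjusted p = 0.552), and Ltbp1, which ties latent TGF-β to the matrix, overlapped (-2.90 ± 2.05, adjusted p = 0.792, with the opposite sign on log2(TPM + 1) at 0.52). Itgav, the αv chain of the integrins that release TGF-β, had an unadjusted p of 0.0176 (1.53 ± 0.47, adjusted p = 0.506). Between the sources, Nrros was called higher in TAM-MG by 6.17 ± 0.53 on the log2 scale (adjusted p = 8.69e-06), as was Thbs1 (1.76 ± 0.53, adjusted p = 0.0178). Itgb8, the partner of αv in TGF-β release (-5.35 ± 1.03, adjusted p = 0.00159), Itgav (-1.40 ± 0.31, adjusted p = 0.00374) and Ltbp4 (-2.62 ± 0.96, adjusted p = 0.0392) were called lower. Lrrc32 was not called (-5.34 ± 2.11, adjusted p = 0.0536).

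Beside the receptors, the list of co-receptors and decoy receptors had 5 tested genes. None passed an unadjusted p under 0.05 by genotype in either source. Tgfbr3 and Eng, which present ligand to the receptors, had log2 fold changes of 1.11 ± 0.93 and 1.43 ± 0.91 in bulk tumours and of -0.92 ± 2.50 and 0.35 ± 0.48 in TAM-MG. The sign of Eng in bulk tumours was the opposite on log2(TPM + 1), at -0.10. In TAM-MG against bulk, Eng (1.83 ± 0.59, adjusted p = 0.0228) and Acvrl1 (2.86 ± 0.58, adjusted p = 0.00232) were called higher and Cd109, which binds TGF-β (-1.95 ± 0.43, adjusted p = 0.00382), lower. Tgfbr3 (-2.66 ± 1.37, adjusted p = 0.119) and the decoy Bambi (1.45 ± 0.57, adjusted p = 0.0514) were not called.

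The activin and BMP branch, which uses other ligands of the same family, was the list with the most genes lower in sorted cells: 13 of 16 were called lower in TAM-MG, beside 32.4% of all genes, and 0 higher (median log2 difference -4.23, beside -0.89 over all genes). Inhbb, Smad9 and Bmpr1b had 0 counts in all 5 TAM-MG libraries and 1.48 to 10.6 CPM, 3.10 to 11.4 CPM and 0.131 to 20.9 CPM in bulk tumours. Inhba and Bmp2 stayed at or below 0.196 and 0.111 CPM in TAM-MG. Within TAM-MG only 8 of the 16 genes passed the filter on low counts. The others, among them Inhba, Inhbb, Bmp2, Bmp7, Bmpr1b and Smad9, entered the comparison of sources through the bulk tumours. All of these others were called lower there. Only a call of lower was open to such genes, so a large part of the calls was fixed by the filter. By genotype, bulk tumours had 7 positive and 8 negative fold changes, and only Bmp7 had an unadjusted p under 0.05 (0.0556 to 0.449 CPM in WT, 1.76 to 7.17 CPM in KO, 3.77 ± 1.51, adjusted p = 0.478). Bmp7 passed the filter on low counts through the KO tumours alone, so only a call of higher was open to it. On log2(TPM + 1) Bmp7 was at -0.13, the opposite sign. Inhba was at -2.93 ± 1.48 and Inhbb at 0.46 ± 1.13 (adjusted p = 0.607 and 0.944). In TAM-MG all 8 tested genes had a positive fold change (median 0.70, beside 0.08 over all genes) and 0 passed an unadjusted p under 0.05. Acvr1 (1.52 ± 0.82, adjusted p = 0.647) and Acvr1b (0.82 ± 1.10, adjusted p = 0.942) are receptors of this branch.

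Among Smad partners and regulators, 6 of 14 tested genes had an unadjusted p under 0.05 in bulk tumours, 3 in each direction, beside 9% of all genes, and none was called with the quasi-likelihood test of edgeR. Skil, a relative of Ski, was at 102 to 105 CPM in WT and at 59.2 to 68.2 CPM in KO (-0.69 ± 0.30, adjusted p = 0.53). Tgif1, a corepressor of Smads, was at 88.6 to 103 CPM and at 31.6 to 71.4 CPM (-0.87 ± 0.38, adjusted p = 0.526), and Smad6, the inhibitor of the BMP branch, at 2.39 to 19.3 CPM and at 0.256 to 1.62 CPM (-3.37 ± 1.41, adjusted p = 0.499). On the other side, Zfyve9, the anchor that brings Smads to the receptor, was at 30.0 to 40.9 CPM in WT and at 55.9 to 118 CPM in KO (1.30 ± 0.39, adjusted p = 0.28, but 0.14 on log2(TPM + 1)). Trim33, which binds Smads (0.84 ± 0.37, adjusted p = 0.526), and the phosphatase gene Ppm1a (0.91 ± 0.40, adjusted p = 0.539) had the same sign on counts, whereas on log2(TPM + 1) Trim33 was at -0.48. In TAM-MG 0 of 15 passed an unadjusted p under 0.05, with Skil at 0.75 ± 0.44 and Smad6 at -1.60 ± 2.83. TAM-MG against bulk gave calls higher for Skil (2.83 ± 0.26, adjusted p = 1.27e-05), Tgif1 (2.27 ± 0.26, adjusted p = 5.37e-05) and Tgif2, which had no counts in any bulk tumour and 3.21 to 44.0 CPM in TAM-MG. It gave calls lower for Ep300 (-2.83 ± 0.35, adjusted p = 8.43e-05), Crebbp (-1.15 ± 0.26, adjusted p = 0.00433), Zfyve9 (-2.96 ± 0.80, adjusted p = 0.0104) and Ppm1a (-1.45 ± 0.48, adjusted p = 0.0276), and Smad6 was not called (-0.13 ± 1.53, adjusted p = 0.982). Tgif2 passed the filter on low counts through TAM-MG alone, so only a call of higher was open to it.

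Genes that TGF-β is known to induce split evenly in the bulk tumours, with 7 positive and 7 negative fold changes of 14 (median 0.01). At an unadjusted p under 0.05, 3 were lower in KO and 1 was higher. Fn1, which encodes fibronectin, was at 263 to 618 CPM in WT and at 72.4 to 135 CPM in KO (-1.96 ± 0.39, adjusted p = 0.154), Tgfbi at 94.8 to 229 CPM and at 11.3 to 49.7 CPM (-2.53 ± 0.62, adjusted p = 0.203), and Pmepa1, a feedback gene, at 208 to 292 CPM and at 74.7 to 233 CPM (-0.93 ± 0.42, adjusted p = 0.54). Cdkn1a, the cell-cycle inhibitor p21, was at 156 to 250 CPM in WT and at 448 to 566 CPM in KO (1.26 ± 0.29, adjusted p = 0.186). Fn1, Tgfbi and Cdkn1a were called by the likelihood ratio test (adjusted p = 0.000952, 0.0068 and 0.0148) and by DESeq2 (8.26e-05, 0.000882 and 0.0022). With no filter on low counts the quasi-likelihood test called Fn1 and Tgfbi (0.0156 and 0.0277), and likewise where each library had to hold 10 or more counts (0.0214 and 0.044). Ccn2, a matrix protein gene, overlapped (0.68 ± 0.63). In TAM-MG, Tgfbi alone had an unadjusted p under 0.05, at 124 to 181 CPM in WT and 74.6 to 105 CPM in KO (-0.79 ± 0.30, adjusted p = 0.552), while Ccn2 (1.03 ± 2.90) overlapped. Between the sources 5 genes were called higher and 5 lower in TAM-MG, beside 20.5% and 32.4% of all genes. Junb (3.29 ± 0.48, adjusted p = 0.000295), Tgfbi (1.55 ± 0.43, adjusted p = 0.0115), Cdkn1a (1.25 ± 0.34, adjusted p = 0.0103) and Fn1 (1.35 ± 0.51, adjusted p = 0.0426) were among the former. Ccn2 (-4.53 ± 1.47, adjusted p = 0.0243), Acta2 (-3.37 ± 0.90, adjusted p = 0.00995), Col1a1 (-4.11 ± 1.30, adjusted p = 0.0217) and Id1 (-1.51 ± 0.51, adjusted p = 0.028) were among the latter.

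The microglial genes known to need TGF-β, among them P2ry12, Tmem119 and Sall1, had opposite signs in the sources. In bulk tumours 11 of 12 had a negative fold change (median -1.74), and 4 of these passed an unadjusted p under 0.05, beside 5.19% of all genes that were lower. P2ry12, a purinergic receptor of resting microglia, was at 27.1 to 77.3 CPM in WT and at 4.23 to 26.5 CPM in KO (-1.68 ± 0.74, adjusted p = 0.532). By TPM the sign of P2ry12 was the opposite (1.02 in limma on log2(TPM + 1)). Tmem119 was at 41.2 to 98.8 CPM and at 3.90 to 34.6 CPM (-1.80 ± 0.69, adjusted p = 0.459), and P2ry13 at 10.8 to 56.1 CPM and at no more than 1.27 CPM (-6.03 ± 1.37, adjusted p = 0.175). P2ry13 was called by the likelihood ratio test (adjusted p = 0.000927), by DESeq2 (2.22e-06) and with no filter on low counts (0.0206). It passed the filter on low counts through the WT tumours, so under that filter only a call of lower was open to it. Sall1, a transcription factor of microglia, was at 11.1 to 30.0 CPM in WT and at 2.04 to 4.41 CPM in KO (-2.55 ± 0.90, adjusted p = 0.412). The microglia and macrophage markers of the same tumours were lower in KO as given above, with 9 of 13 at an unadjusted p under 0.05, and their part in this result was not tested.

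In TAM-MG 11 of 12 had a positive fold change (median 0.69, beside 0.08 over all genes), 6 were higher in KO without overlap and 2 had an unadjusted p under 0.05, beside 14.6% and 5.47% of all genes. Sall1 was at 66.1 to 84.9 CPM in WT and at 194 to 244 CPM in KO (1.59 ± 0.28, adjusted p = 0.502), and Olfml3 at 815 to 1173 CPM and at 1932 to 2150 CPM (1.04 ± 0.28, adjusted p = 0.502). DESeq2 called both (adjusted p = 7.07e-05 and 0.00352), and the likelihood ratio test called Sall1 (0.00746). P2ry12 (1.12 ± 0.49, adjusted p = 0.552) and Tmem119 (0.82 ± 0.35, adjusted p = 0.552) had the same sign. The 13 microglia and macrophage markers gave 7 positive and 6 negative fold changes here (median 0.004), with summed levels of 28973 and 38506 CPM in WT and of 30679 to 43863 CPM in KO. In the test of the difference between sources, Sall1 was called (4.18 ± 0.67, adjusted p = 0.0456). This call was lost in 9 of 11 fits that left out 1 library each (adjusted p from 0.0377 to 0.136 over the 11) and with RLE size factors (0.0568). P2ry13 (7.04 ± 1.37, adjusted p = 0.0818), Tmem119 (2.66 ± 0.92, adjusted p = 0.309) and P2ry12 (2.84 ± 0.97, adjusted p = 0.309) were not called. Between the sources all 12 were called higher in TAM-MG, beside 20.5% of all genes (median 6.81, against -0.89 over all genes), from Sall1 (4.64 ± 0.35) and Pros1 (5.10 ± 0.26) to Siglech (7.33 ± 0.35) and Gpr34 (9.21 ± 0.74), with Tmem119 at 6.41 ± 0.53 and P2ry12 at 7.02 ± 0.58.

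**Figure D5:**
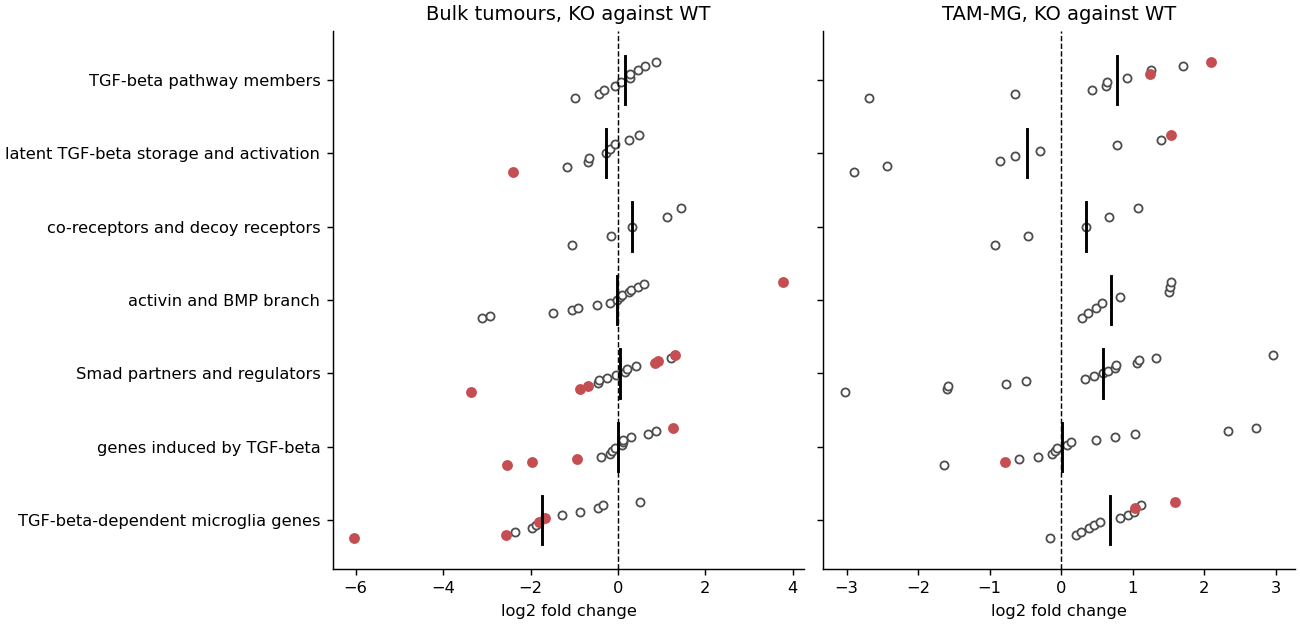
Log2 fold change of KO against WT for each tested gene of the 10 described here (top line) and of 6 related lists, in bulk tumours (left) and TAM-MG (right); filled points have an unadjusted p under 0.05 and bars mark the median of a list. The TGF-β-dependent microglia genes lie mostly left of 0 in bulk tumours (median -1.74) and mostly right of it in TAM-MG (median 0.69), and none of the points was called with the quasi-likelihood test of edgeR.

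Genes with the pattern most like that of 3 members over the 6 bulk tumours were found by the mean absolute difference of centred log2 CPM, among 11167 genes with a mean of at least 10 CPM. For Tgfb1 these were Cpm, which encodes carboxypeptidase M (0.23), Zfp958 (0.25) and Tkfc (0.27). For Tgfbr1 they included Necap2 (0.11) and Depdc7 (0.16). For Smad7 they were Arl6ip6 (0.12), Slc52a2 (0.17) and Tmem80 (0.20). The closest genes of Tgfb1 lay farther away than those of Tgfbr1 or Smad7.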

How the data were processed

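RNA was sequenced from bulk GL261 tumours and sorted TAM-MG. Per the labels and the study's methods, the authors aligned reads with STAR on Ensembl GRCm38, deposited raw counts per gene, and estimated TPM with Salmon; tool versions are not given in the sources used here. The deposited TPM of bulk tumours hold 12719 genes, those of TAM-MG 34839. An unnamed total line in the TAM-MG tables (100% of the gene sum) was left out. Of 50686 identifiers, 50376 had a symbol in GENCODE M21 (GRCm38), which gave coordinates and exon lengths. Promoters are from RefSeq (GRCm38.p6). The authors' annotation is of another release.

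Counts were tested with edgeR 4.0.16 (R 4.3.3): filterByExpr (minimum count 10, total 15), TMM, quasi-likelihood test, Benjamini-Hochberg adjustment over all genes tested, and a change of at least 1.5-fold. Each genotype comparison used the libraries of its own source. The difference of genotype effects and the source comparison used all 11 libraries in 4 groups. Standard errors were derived from the F statistic. The likelihood ratio test, DESeq2 1.42.0, RLE and library-size scaling, other count filters, leaving out each library, and limma 3.58.1 on log2(TPM + 1) and log2(TPM + 0.1) were tried. TPM levels and ligand shares are descriptions without a test. Python 3.11.15 made the summaries.

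The 10 genes and all lists were chosen with earlier results of these data known. Named from each list were its first 2 tested genes and up to 4 in each direction with an unadjusted p under 0.05, by smallest p; some genes that the rules name are not reported here. The labels number each library as its own sample, and p-values measure the spread between these libraries. Floors cover counting error only, whereas the ± values hold the spread between libraries.

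On simulated counts with 50 genes at each of 2, 4, 8 and 16-fold, the test called 2%, 34%, 58% and 68% in bulk tumours (16237 genes run), 2%, 22%, 34% and 46% in TAM-MG (13983 genes), 0%, 0%, 12% and 32% for the difference of genotype effects (20220 genes), and 2%, 38%, 44% and 66% between the sources (20440 genes). It called 5, 3, 3 and 3 unchanged genes.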

Additional observations from a re-analysis of the deposited data

Results flagged for a closer look

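Among 20 sets of libraries (10 genes in the 6 bulk and in the 5 TAM-MG libraries, both genotypes together), 3 held a library far from the others by Dixon's test. For normally distributed values chance gives about 1 in 20. The test was run on CPM without a log scale, and all 3 were highest values, so this rate may not hold here. Tgfb1 reached 9.27 CPM on the 11-library scale in Bulk KO 37, and the next bulk library had 2.47 CPM. By TPM the gap was not seen, with 8.99 in Bulk KO 37 and 7.95 in Bulk WT 110. Tgfb3 reached 38.5 CPM in TAM-MG WT 74, and the next had 5.63 CPM. Smad3 reached 114 CPM in TAM-MG KO 63, and the next had 46.1 CPM. Sall1 was marked because its genotype effect differed between the sources, by 4.18 on the log2 scale (adjusted p = 0.0456 by edgeR's quasi-likelihood test over the 11 libraries).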

How the results depend on the processing

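No paired analysis was possible because the groups share no replicate numbers. In bulk tumours and TAM-MG, 0 of the 10 genes were called by genotype under every alternative run. For TAM-MG against bulk, 2 were called higher with library size only, between 2 and 5 with 1 library left out, and 1 lower where each library had to hold 10 or more counts and fewer genes were tested. The shift of the median gene went from -0.89 to -1.06 with RLE size factors, to -1.45 with library size only and to -0.02 with at least 10 counts in every library. From counts per exon length, the bulk shares of Tgfb1, Tgfb2 and Tgfb3 were 5.56%, 39.7% and 54.8%.

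Signs turned as follows, on the log2 scale, and the cause was not tested. With library size only, bulk Tgfb2 was at -0.0124. With limma on log2(TPM + 1), with or without a filter, bulk Eng was at -0.10, Bmp7 at -0.13, Trim33 at -0.48 and P2ry12 at 1.02, and in TAM-MG Ltbp1 at 0.52. With log2(TPM + 0.1) these were -0.44, -0.0878, -1.31, 2.01 and 0.58.

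With 1 library left out, bulk fold changes ran from -1.24 to 1.40 for Tgfb1, -0.98 to 0.48 for Tgfb2, -0.36 to 0.67 for Tgfb3, -0.42 to 0.27 for Smad2, -0.70 to 0.0214 for Smad3, -3.66 to 0.13 for Inhba and -0.14 to 0.93 for Inhbb. Those of TAM-MG ran from -0.0652 to 7.17 for Tgfb2, -0.12 to 2.42 for Smad4, -2.81 to 8.19 for Tgfbr3, -0.0157 to 0.57 for Eng and -2.59 to 7.58 for Smad6. Differences of the genotype effect ran from -0.10 to 7.07 for Tgfb2, -0.58 to 0.60 for Tgfbr2 and -0.28 to 2.18 for Smad4. TAM-MG against bulk ran from -0.72 to 1.62 for Tgfb1 and -4.84 to 0.33 for Smad6. A lone library was assumed to vary like the other groups. Depth limits the precision of Tgfb2, with 63 counts over the TAM-MG libraries, and of Tgfb1, with 382 over the bulk and 610 over the TAM-MG libraries.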
